A study of Mus musculus with 6 samples.

Results

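The guanylate-binding proteins (GBPs) are a family of large GTPases encoded in the mouse by a cluster on chromosome 3 and a cluster on chromosome 5. The 9 symbols examined were Gbp2, Gbp3, Gbp5 and Gbp7 of the chromosome 3 cluster and Gbp4, Gbp6, Gbp8, Gbp9 and Gbp10 of the chromosome 5 cluster. Members were found by matching the Ensembl gene identifier of each row to the symbol in GENCODE M21 (GRCm38), which gave 6 of the 9 (Gbp2, Gbp3, Gbp4, Gbp7, Gbp8 and Gbp9) among 39179 rows in all. Gbp5, Gbp6 and Gbp10 are not analysed here. All 6 members passed the filter on low counts, which kept 14928 genes. The family was chosen by the members' read counts, as log2 fold changes of DEL-1-Fc over Fc in these same libraries, so the members' own values are given as a description, with no p-value.

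The libraries came from naive splenic CD4+ T cells of wild-type C57BL/6 mice aged 6 weeks, cultured for 3 days toward the regulatory T cell (Treg) fate. Of the 6 libraries, 3 were from cells given DEL-1-Fc, a fusion of DEL-1, a secreted protein that binds integrins, to an antibody Fc part, and 3 from cells given Fc alone. Both groups also received 2 µg/ml of coated anti-CD3 (the first letter of this unit is garbled in the labels), 1 µg/ml of anti-CD28, 5 ng/ml of TGF-β1 and 40 ng/ml of IL-2, so every library is from stimulated cells exposed to TGF-β1. PolyA-selected RNA was sequenced and reads were counted per gene. The labels do not say whether replicates were separate cultures or animals, and p-values here rest on the spread among libraries alone, part or all of which may be technical.

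GBPs belong to the dynamin superfamily and are among the genes most strongly induced by interferon-γ, whose signalling also induces the transcription factor IRF1. In macrophages the proteins gather on the vacuoles and surfaces of bacteria and parasites, help to disrupt them and promote the activation of inflammasomes. Many other cell types, T cells among them, also express GBP genes after interferon.

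Library totals ranged from 33364166 counts (DEL-1-Fc replicate 1) to 61967687 counts (Fc replicate 2). On the first principal component, with 44.0% of the variance, the DEL-1-Fc and Fc libraries lay apart. The next component, with 23.3%, split the DEL-1-Fc group. On it, replicate 1 of that group scored 27.9, while its replicates 2 and 3 scored -28.7 and -23.6. The Fc libraries lay between, at 4.38 to 11.5. Values below are CPM (counts scaled to a common library total), corrected by the trimmed mean of M values (TMM). The 6 markers of T cells and Tregs summed to 4334 to 4921 CPM in DEL-1-Fc libraries and 4291 to 4662 CPM in Fc libraries. Of these, Foxp3 (523 CPM with DEL-1-Fc and 359.5 CPM with Fc on average, edgeR adjusted p = 0.0166) and Cd28 (adjusted p = 0.0385) rose, Ctla4 fell (adjusted p = 0.031), and Cd3e, Cd4 and Il2ra did not pass. The 9 markers of macrophages and dendritic cells, which can hold high GBP levels, summed to 4.91 to 5.84 CPM with DEL-1-Fc and 5.35 to 5.73 CPM with Fc, and Csf1r, Cd14 or Itgax was at 0 in some libraries of both groups. The 5 B cell markers summed to 5.80 to 7.07 CPM with DEL-1-Fc and 4.90 to 6.15 CPM with Fc.

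The 3 measured chromosome 3 members were higher in every DEL-1-Fc library than in any Fc library, as were 17.3% of all tested genes. The 3 measured chromosome 5 members overlapped between the groups, and so did Gbp2b, a chromosome 3 family row outside the rule. Gbp2 (chr3:142620602-142638008), a GBP that carries a lipid anchor and coats parasite vacuoles in mouse cells, was the most abundant member. It measured 789.9, 819 and 828 CPM with DEL-1-Fc and 454, 525 and 505 CPM with Fc. The DEL-1-Fc libraries lay close together, and the lowest of them was well above the highest Fc library. Gbp2 averaged 812 ± 20.01 CPM with DEL-1-Fc and 495 ± 36.5 CPM with Fc (SD, n = 3 each), a 1.64-fold difference (log2 fold change 0.72, SE 0.0744). In bulk RNA such as this, more cells with a transcript and more of it per cell cannot be told apart.

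Gbp7 (chr3:142530342-142550149), which in mouse macrophages takes part in assembling the NADPH oxidase on phagosomes, measured 85.0, 94.3 and 87.9 CPM with DEL-1-Fc and 48.2, 64.4 and 57.4 CPM with Fc. The groups did not overlap, and Fc replicate 1 was the lowest library. The means were 89.1 ± 4.76 CPM with DEL-1-Fc and 56.7 ± 8.11 CPM with Fc (SD, n = 3 each), a 1.57-fold difference (log2 fold change 0.65, SE 0.102). Gbp3 (chr3:142560026-142573209), which lies between Gbp7 and Gbp2, measured 43.8, 47.4 and 47.3 CPM with DEL-1-Fc and 27.6, 32.4 and 32.1 CPM with Fc. Again no Fc library reached the DEL-1-Fc range. Gbp3 averaged 46.2 ± 2.07 CPM with DEL-1-Fc and 30.7 ± 2.64 CPM with Fc (SD, n = 3 each), a 1.505-fold difference (log2 fold change 0.59, SE 0.0793). The ratio of Gbp3 to Gbp7 in CPM was 0.515, 0.503 and 0.538 in DEL-1-Fc and 0.573, 0.503 and 0.559 in Fc, so the proportion of these neighbours overlapped between the groups.

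**Figure D1:**
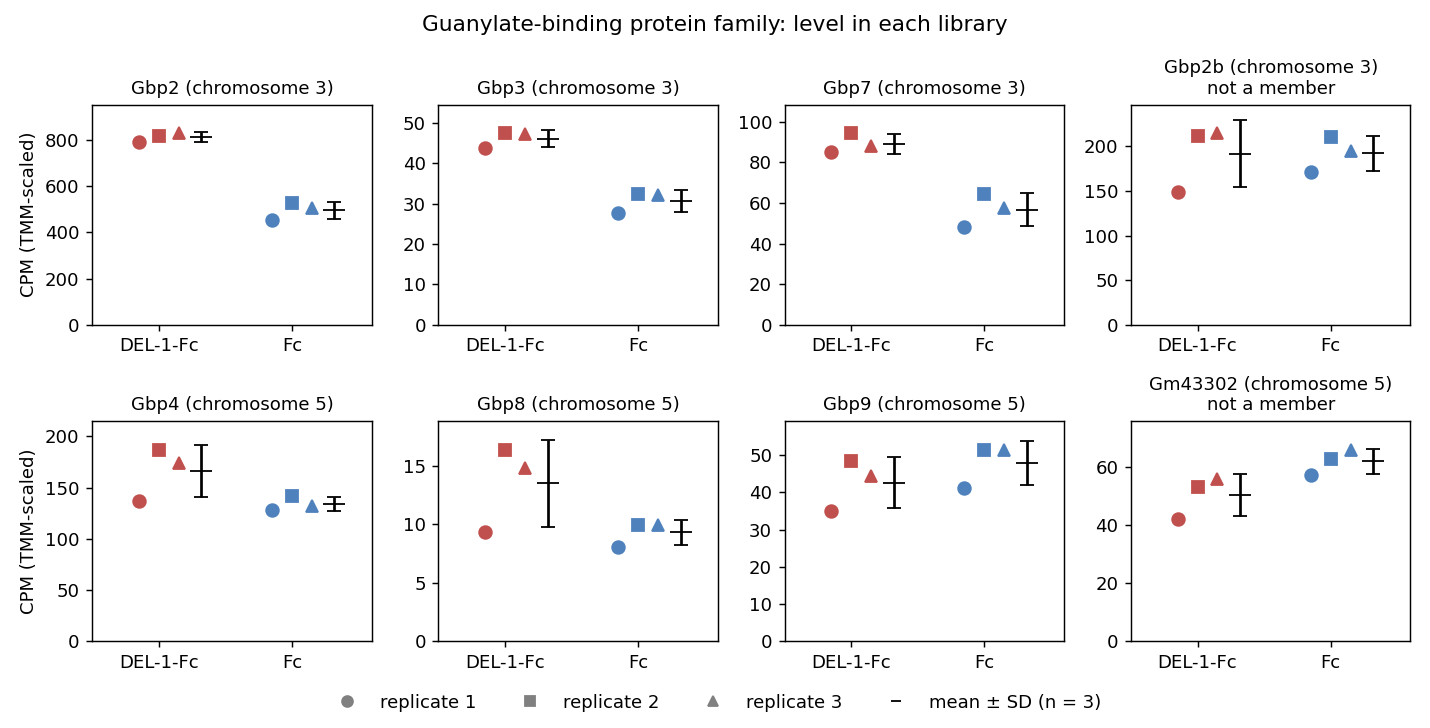
TMM-scaled CPM (y axis, linear and starting at 0, with its own scale in each panel) of the 6 members and of 2 other family rows, for DEL-1-Fc and Fc libraries. Symbols mark the replicate, and the bar is the mean ± SD of 3 libraries. Gbp2, Gbp3 and Gbp7 separate the groups, while DEL-1-Fc replicate 1 is the lowest DEL-1-Fc library in every panel. Fc replicate 1 is likewise the lowest Fc library in every panel.

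The 250 bases before the RefSeq transcription starts (GRCm38.p6, plus strand) of these 3 genes are shown because interferon factors act at GBP promoters. No such window was found for Gbp4, Gbp8 or Gbp9, so the members whose groups overlapped could not be compared. Capitals mark matches to the core of the interferon-stimulated response element (ISRE; TTTC, any 2 bases, TTTC), bound by IRF factors, and to the core of the interferon-γ activated site, TTCNNNGAA, a further element of interferon-γ induced promoters.
Gbp2, chr3:142620413-142620662: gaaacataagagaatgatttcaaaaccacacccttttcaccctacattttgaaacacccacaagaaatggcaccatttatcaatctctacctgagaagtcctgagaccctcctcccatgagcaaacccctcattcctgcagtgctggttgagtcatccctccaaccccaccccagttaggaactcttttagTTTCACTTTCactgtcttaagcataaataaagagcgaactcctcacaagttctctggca
Gbp3, chr3:142559794-142560043: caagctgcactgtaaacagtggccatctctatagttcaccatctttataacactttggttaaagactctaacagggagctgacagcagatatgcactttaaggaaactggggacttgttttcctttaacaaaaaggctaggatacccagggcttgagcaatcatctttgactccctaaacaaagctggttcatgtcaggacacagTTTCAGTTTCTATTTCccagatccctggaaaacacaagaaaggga
Gbp7, chr3:142530086-142530335: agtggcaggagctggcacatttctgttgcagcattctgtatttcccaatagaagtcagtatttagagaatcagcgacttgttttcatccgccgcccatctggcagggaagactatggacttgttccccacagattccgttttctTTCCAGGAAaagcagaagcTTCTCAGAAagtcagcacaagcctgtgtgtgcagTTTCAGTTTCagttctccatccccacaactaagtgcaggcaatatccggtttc
Both strands were searched, and all ISRE core matches lay on the strand of the gene (TTCNNNGAA reads the same on both). Positions count from the RefSeq start. Gbp2 held the ISRE core at -59 to -50, and Gbp7 held it at -53 to -44. The Gbp2 window runs past the GENCODE M21 start of the gene (142620602), so its match lies just inside the gene as annotated there. Gbp3 had a pair of overlapping matches, at -45 to -36 and at -39 to -30, and a further RefSeq start of Gbp3 (window chr3:142560106-142560355) had no match to either core. TTCNNNGAA occurred in Gbp7 at -106 to -98 and at -87 to -79, and in neither Gbp2 nor Gbp3. The ISRE core was not particular to these 3 genes. It also lay at -137 to -128 in Gbp2b, the neighbour of Gbp2 described below with a log2 fold change of 0.00, and at -165 to -156 in Gbp5, which held TTCNNNGAA as well. Among 32851 RefSeq windows of the same length, 2.98% held the ISRE core and 7.02% held TTCNNNGAA. A match describes the letters and does not show that a factor bound.

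Of the chromosome 5 members, Gbp4 (chr5:105115767-105139586), reported in mouse cells to restrain the interferon factor IRF7, measured 137, 187 and 175 CPM with DEL-1-Fc and 128, 142 and 132 CPM with Fc. DEL-1-Fc replicates 2 and 3 lay above every Fc library, but replicate 1 lay within the Fc range. The means were 166 ± 25.7 CPM with DEL-1-Fc and 134 ± 7.22 CPM with Fc (SD over n = 3 libraries; log2 fold change 0.31, SE 0.107). Gbp8 (chr5:105014150-105139540), the least abundant member, measured 9.29, 16.3 and 14.8 CPM with DEL-1-Fc and 8.07, 9.91 and 9.96 CPM with Fc, with the same replicate inside the Fc range (log2 fold change 0.54, SE 0.197).

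Gbp9 (chr5:105077630-105139539) was the exception in direction. It measured 35.0, 48.4 and 44.5 CPM with DEL-1-Fc and 41.1, 51.3 and 51.4 CPM with Fc. The groups overlapped, and the means of 42.7 ± 6.88 CPM with DEL-1-Fc and 47.9 ± 5.92 CPM with Fc (SD, n = 3 each) differed by less than the spread (log2 fold change -0.17, SE 0.13). The ratio of Gbp9 to Gbp4 in CPM was 0.255, 0.259 and 0.255 in DEL-1-Fc and 0.321, 0.361 and 0.388 in Fc. That ratio separated the groups, although neither gene did so by itself, and its difference was not tested. How often the ratios of other gene pairs do so was not examined. The ratio of Gbp8 to Gbp4 overlapped between the groups, at 0.0676, 0.0874 and 0.0848 in DEL-1-Fc and 0.0631, 0.0697 and 0.0753 in Fc.

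In the edgeR quasi-likelihood fit over 14928 genes, 3 of the 6 members, Gbp2, Gbp3 and Gbp7, passed an adjusted p of 0.05 as higher, where 6.4% of all tested genes did (12.6% in either direction). The same 3 were the members whose groups did not overlap, against 17.3% of all tested genes with every DEL-1-Fc library above every Fc library (34.8% apart in either direction). Since the members were picked with this contrast known, nothing is read from these counts. The median log2 fold change was 0.56 over the 6 members and 0.01 over all tested genes. DEL-1-Fc replicate 1 was the shallowest library and the lowest DEL-1-Fc value of each member. Without it 5 members passed, Gbp4 and Gbp8 in addition, and with DESeq2 Gbp8 passed as well. Calls over all genes also grew in these settings. Without DEL-1-Fc replicate 1, 1485 of 15208 tested genes passed as higher, and with DESeq2 1187 of 14928, against 956 of 14928 in the edgeR fit. Without DEL-1-Fc replicate 1 the log2 fold change was 0.43 for Gbp4, 0.74 for Gbp8 and -0.05 for Gbp9. Over the 14 alternatives run, the log2 fold change was 0.66 to 0.76 for Gbp2, 0.52 to 0.63 for Gbp3 and 0.55 to 0.75 for Gbp7, given as a description of the values that chose the family.

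**Figure D2:**
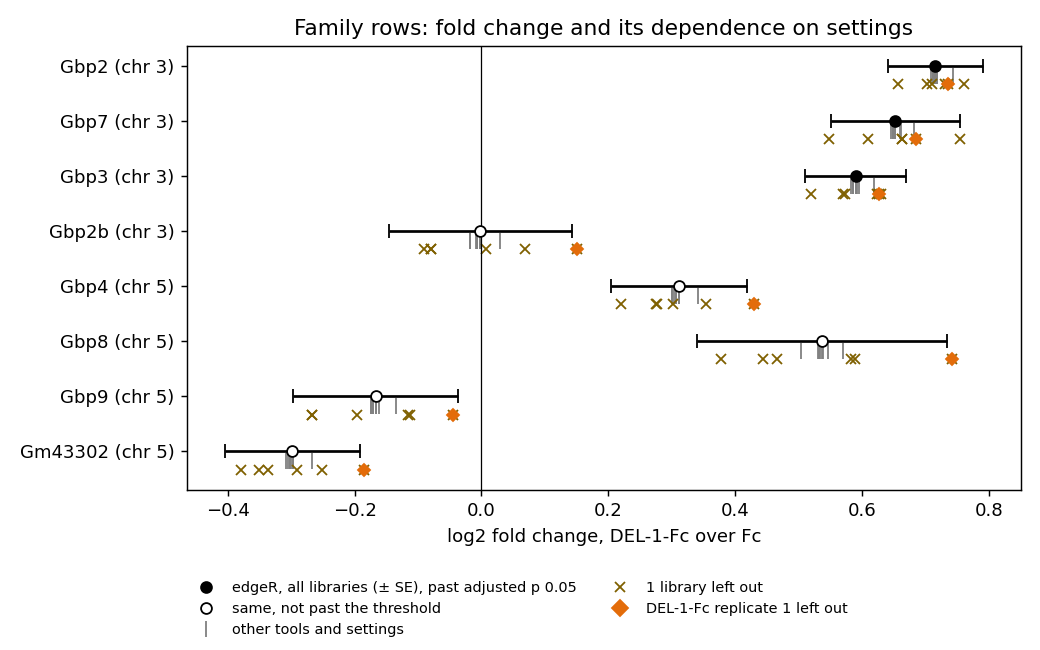
Log2 fold change of DEL-1-Fc over Fc (x axis) for the 6 members, Gbp2b and Gm43302, by chromosome. Circles with bars are the edgeR estimate ± SE over all libraries, ticks are other tools and settings, crosses leave out 1 library and diamonds leave out DEL-1-Fc replicate 1. Gbp2, Gbp7 and Gbp3 stay between 0.52 and 0.76, and the diamond is the highest value for Gbp2b, Gbp4, Gbp8, Gbp9 and Gm43302.

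Levels of different genes were compared per kilobase of annotated exon. On that scale Gbp2 stood at 323 ± 7.95 CPM per kilobase in DEL-1-Fc and 197 ± 14.5 in Fc (SD, n = 3 each, here and for the other members), far above Gbp4, next in order with 22.2 ± 3.43 in DEL-1-Fc and 17.9 ± 0.963 in Fc. Gbp7 followed with 15.9 ± 0.848 CPM per kilobase in DEL-1-Fc and 10.1 ± 1.45 in Fc, and Gbp3 with 14.1 ± 0.634 in DEL-1-Fc and 9.40 ± 0.81 in Fc. Gbp9 reached 8.25 ± 1.33 CPM per kilobase in DEL-1-Fc and 9.27 ± 1.14 in Fc, and Gbp8 came last with 3.91 ± 1.08 in DEL-1-Fc and 2.70 ± 0.313 in Fc. The order of the means was the same in both groups. In DEL-1-Fc no neighbours in the order overlapped, but in Fc the libraries of Gbp7 and Gbp3, and of Gbp3 and Gbp9, did. Gbp2 took 69.5% of all member counts in DEL-1-Fc and 64.0% in Fc, and Gbp9 took 3.63% in DEL-1-Fc and 6.19% in Fc (means of 3 libraries).

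Reads that match several copies limit these values, because how the counting treated them is not given in the sources used here. In GENCODE M21, 4.85% of the 31-base words of Gbp2 transcripts, 5.64% of those of Gbp3 and 14.7% of those of Gbp7 also occur in another gene. For Gbp7 most of these (10.8% of its words) lie in the gene model Gm43802, which overlaps 11.3% of its exon bases on the same strand. That part can be the same bases rather than a second copy, and no counted gene overlaps the exons of Gbp7 on that strand. The shares were 14.3% for Gbp4, 18.3% for Gbp9 and 31.1% for Gbp8. These 3 genes also overlap one another at the start of their annotations on the minus strand, by up to 1.77% of exon bases, for Gbp8. Gbp8 thus has the largest share of sequence that counting could split between genes.

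**Figure D3:**
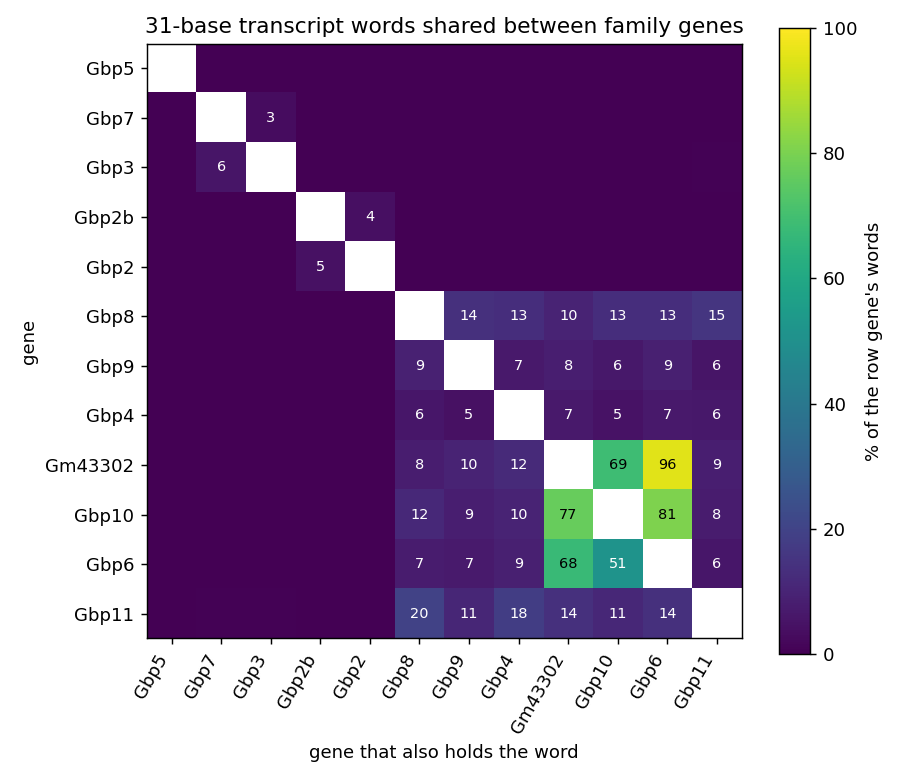
Percent of the 31-base transcript words of each family gene (rows) that also occur in another family gene (columns), in GENCODE M21, with numbers printed where at least 1% is shared. Above that level, sharing lies between genes of the same cluster, and it is largest between Gm43302, Gbp6 and Gbp10.

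Sums over each cluster keep together reads split among its measured members, but not reads shared with other family rows. Gbp2 shares 4.61% of its words with Gbp2b, and Gbp8 shares 15.5% with Gbp11, and neither row is in these sums. Gbp2, Gbp3 and Gbp7 together measured 919, 961 and 963 CPM with DEL-1-Fc and 529.9, 622 and 594 CPM with Fc (log2 fold change 0.70, SE 0.0776). Gbp4, Gbp8 and Gbp9 together measured 182, 252 and 234 CPM with DEL-1-Fc and 177, 203 and 194 CPM with Fc (log2 fold change 0.22, SE 0.115). The groups were apart for the chromosome 3 sum and overlapped for the chromosome 5 sum, whose log2 fold change was 0.34 without DEL-1-Fc replicate 1. The ratio of the chromosome 3 sum to the chromosome 5 sum was 5.05, 3.82 and 4.12 in DEL-1-Fc and 2.99, 3.06 and 3.07 in Fc, without overlap. Whether the clusters differed in their response was not tested.

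Other rows of the family, outside the rule, were measured too. Gbp2b, the gene next to Gbp2 that is also called Gbp1, measured 148, 212 and 215 CPM with DEL-1-Fc and 171, 211 and 194 CPM with Fc (log2 fold change 0.00, SE 0.144, edgeR adjusted p = 0.995). Its libraries overlapped, and its sign changed between the alternatives. The ratio of Gbp2 to Gbp2b in CPM was 5.32, 3.86 and 3.86 in DEL-1-Fc and 2.65, 2.49 and 2.60 in Fc, and 4.61% of the words of Gbp2 also occur in Gbp2b. Gm43302, a gene model whose exons lie largely on those of Gbp10 and Gbp6 and whose words all occur in other genes, measured 42.1, 53.1 and 55.9 CPM with DEL-1-Fc and 57.5, 62.8 and 66.0 CPM with Fc. Every DEL-1-Fc library was below every Fc library, as for 17.5% of all tested genes, but the difference did not pass (log2 fold change -0.30, SE 0.106, adjusted p = 0.107). Gbp11, a polymorphic pseudogene in this annotation, had 11, 47 and 48 counts in DEL-1-Fc and 16, 22 and 11 counts in Fc, with overlap between the groups (log2 fold change 1.27, SE 0.371, adjusted p = 0.0573). Gbp11 passed with DESeq2 (adjusted p = 0.0455), with no low-count filter (0.0265) and without DEL-1-Fc replicate 1 (log2 fold change 1.53, adjusted p = 0.00402).

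The genes that flank the clusters were examined next. On chromosome 3 the nearest tested protein-coding gene before the cluster, 98282 bases away, was Pdlim5, which encodes a PDZ and LIM domain protein of the actin cytoskeleton. Pdlim5 rose to 55.5 ± 2.75 CPM with DEL-1-Fc, against 35.99 ± 0.883 CPM with Fc (SD over n = 3 libraries; log2 fold change 0.63, SE 0.0641, edgeR adjusted p = 0.000452). Tspan5 and Rap1gds1 on that side, and Kyat3, Gtf2b and Pkn2 on the other, did not pass, with log2 fold changes of -0.16 to 0.18.

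On chromosome 5, BC005561, Zfp951 and Abcg3 on one side did not pass, with log2 fold changes of -0.19 to 0.41. Abcg3 passed without DEL-1-Fc replicate 1 (log2 fold change 0.52, adjusted p = 0.013). On the other side lie Lrrc8b, Lrrc8c and Lrrc8d, which encode subunits of the volume-regulated anion channel, and all 3 fell. Lrrc8d measured 57.8 ± 4.28 CPM with DEL-1-Fc and 79.1 ± 0.741 CPM with Fc (SD over n = 3 libraries; log2 fold change -0.45, SE 0.068, edgeR adjusted p = 0.00309). The log2 fold change was -0.40 for Lrrc8b (SE 0.108, adjusted p = 0.0431) and -0.25 for Lrrc8c (SE 0.069, adjusted p = 0.0437). The Lrrc8b and Lrrc8c calls were each lost without DEL-1-Fc replicate 3 or any one Fc replicate and with library sizes alone. That of Lrrc8b was also lost with no robust dispersion and with the replicate number as a block, and that of Lrrc8c with limma-voom. Over the alternatives their adjusted p ranged from 0.00662 to 0.142 and from 0.0116 to 0.195.

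Interferon-γ signalling genes, which act upstream of the family, were mixed. Of the 11 tested, 1 rose, 2 fell and 8 did not pass, where 6.4% of all tested genes rose and 6.22% fell. Their median log2 fold change was 0.06, against 0.01 for all tested genes. Ifng, the ligand, fell to 10.4, 9.68 and 13.9 CPM with DEL-1-Fc, against 36.1, 31.1 and 28.6 CPM with Fc (log2 fold change -1.49, SE 0.147, edgeR adjusted p = 0.000418), and a predicted gene overlaps it on the same strand. Every DEL-1-Fc library was thus far below every Fc library, the opposite direction to Gbp2, Gbp3 and Gbp7. The 6 markers of NK cells and CD8 T cells, which also make interferon-γ, summed to 82.6 to 115 CPM with DEL-1-Fc and 146 to 162 CPM with Fc, but they did not move together. Most of the sum was Nkg7, which fell (86.4 CPM with DEL-1-Fc and 141 CPM with Fc on average, adjusted p = 0.00667), while Cd8a rose at a low level (4.06 CPM with DEL-1-Fc and 2.37 CPM with Fc, adjusted p = 0.00607) and Cd8b1 did not pass (8.20 CPM with DEL-1-Fc and 7.96 CPM with Fc). Klrk1 fell (0.787 CPM with DEL-1-Fc and 2.90 CPM with Fc, edgeR adjusted p = 0.00201). Ncr1 was at 0 in all 6 libraries and Klrb1c in 3, and the part of such cells in the Ifng difference was not tested.

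Ifngr1, the ligand-binding receptor chain, rose to 112, 119 and 111 CPM with DEL-1-Fc, against 64.1, 72.6 and 71.8 CPM with Fc (log2 fold change 0.72, SE 0.0688, edgeR adjusted p = 0.000355). The calls of Ifng and Ifngr1 held under all 14 alternatives. Ifngr2, the signalling chain, did not pass (log2 fold change 0.06, SE 0.0768, adjusted p = 0.676). Irf1 measured 358, 395 and 410.2 CPM with DEL-1-Fc and 348, 365 and 368 CPM with Fc, with overlap between the groups (log2 fold change 0.11, SE 0.0707, adjusted p = 0.377). The kinase gene Jak2 (log2 fold change -0.18, SE 0.0797, adjusted p = 0.197) and the feedback inhibitor Socs1 (log2 fold change 0.04, SE 0.124, adjusted p = 0.881) did not pass either, and the sign of Socs1 changed between the alternatives. Irf8, a further IRF factor, fell (log2 fold change -0.35, SE 0.0739, edgeR adjusted p = 0.0149). Its call was lost without any one Fc replicate, which left 1 faller among these genes. Far fewer genes of any kind were called in those fits (901, 970 and 963, against 1884). The log2 fold change of Irf8 stayed at -0.38 to -0.31 over the alternatives, with adjusted p of 2.21e-05 to 0.092. Without DEL-1-Fc replicate 1 there were 2 risers among the signalling genes. A predicted gene overlaps Irf8 on the same strand.

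The immunity-related GTPases (IRGs) are another interferon-γ induced family and act with GBPs on the same vacuoles. Of 10 tested genes of this kind, with the very large GTPase Gvin1 counted among them, 2 fell and 8 did not pass, and the median log2 fold change was -0.10. Iigp1 measured 381, 422 and 468 CPM with DEL-1-Fc and 499.6, 562 and 568 CPM with Fc (log2 fold change -0.36, SE 0.0908, edgeR adjusted p = 0.0335). Gm4951, an IRG gene that overlaps a predicted gene, also fell (log2 fold change -0.51, SE 0.0848, adjusted p = 0.00499). Irgm1, a regulator of other IRGs, did not pass (log2 fold change -0.20, SE 0.0714, adjusted p = 0.101) except with DESeq2 (0.0483), nor did Igtp, also known as Irgm3 (log2 fold change 0.01, SE 0.0731, adjusted p = 0.963), which overlaps Irgm2 and whose sign changed between the alternatives. The Iigp1 call was lost with library sizes alone, without DEL-1-Fc replicate 2 or when Fc replicate 1, 2 or 3 was left out (adjusted p over the alternatives 0.00245 to 0.138), which left 1 faller. Gvin1, named after its values were seen, had 4.30, 4.07 and 37.4 CPM with DEL-1-Fc and 3.84, 4.44 and 4.24 CPM with Fc. DEL-1-Fc replicate 3 alone stood out, and the log2 fold change of 1.88 became 0.00 without that library.

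Of 19 tested other genes induced by interferon-γ, 1 rose, 8 fell and 10 did not pass, with a median log2 fold change of -0.21. Nos2, which encodes inducible nitric oxide synthase, fell to 7.98, 8.37 and 10.9 CPM with DEL-1-Fc, against 27.0, 22.2 and 23.6 CPM with Fc (log2 fold change -1.41, SE 0.132, edgeR adjusted p = 0.000311). The groups were far apart. The chemokine genes Cxcl10 (log2 fold change -1.49, SE 0.165) and Cxcl9 (log2 fold change -1.83, SE 0.35) fell as well, Cxcl9 at under 1 CPM in all 6 libraries, and so did Icam1, an adhesion ligand (log2 fold change -0.54, SE 0.054). Leaving out Fc replicate 1, 2 or 3 gave 5, 4 and 5 fallers, and leaving out DEL-1-Fc replicate 1 gave 12. The single riser was Ciita, the activator of MHC class II genes, named after its values were seen. It lay under 1 CPM in all 6 libraries (log2 fold change 1.09, SE 0.272, adjusted p = 0.0311) and did not pass when any one Fc replicate was left out.

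Type I interferon genes were examined beside them. Of 23 tested antiviral genes, 14 fell and 9 did not pass, with a median log2 fold change of -0.62, and leaving out any one library gave 12 to 16 fallers. Oas3, an enzyme that senses double-stranded RNA, measured 67.3, 72.8 and 80.99 CPM with DEL-1-Fc and 168, 201 and 184 CPM with Fc (log2 fold change -1.32, SE 0.0896, edgeR adjusted p = 7.26e-05). Ifi44 (log2 fold change -1.51, SE 0.115), Rsad2, which encodes viperin (log2 fold change -1.96, SE 0.171), and Mx2, a dynamin-like GTPase gene (log2 fold change -1.75, SE 0.164), fell too. Of 8 tested genes of type I interferon signalling, 4 fell and 4 did not pass, with a median log2 fold change of -0.14. They were Usp18, a brake on the receptor (log2 fold change -1.65, SE 0.125), Stat2 (log2 fold change -0.62, SE 0.0771), Irf7 (log2 fold change -0.74, SE 0.11) and the kinase gene Tyk2 (log2 fold change -0.23, SE 0.0627, adjusted p = 0.0463). The Tyk2 call was lost without DEL-1-Fc replicate 3 or any one Fc replicate, among other settings (adjusted p over the alternatives 0.0133 to 0.178).

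**Figure D4:**
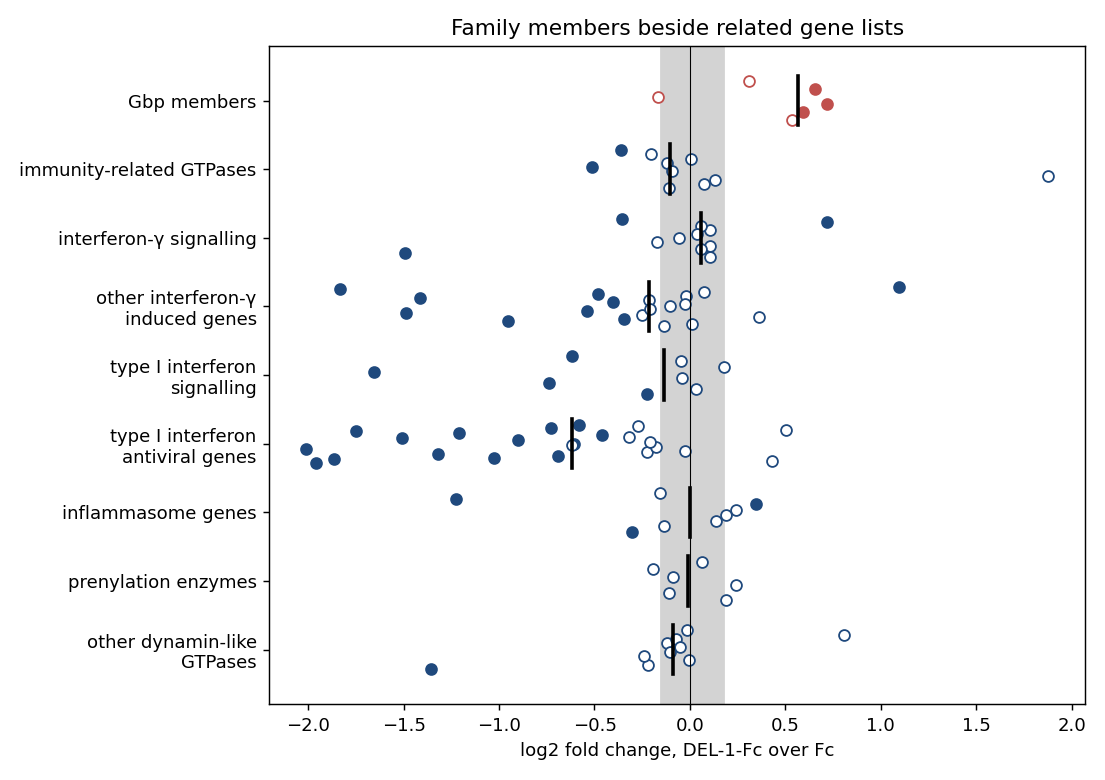
Log2 fold change of DEL-1-Fc over Fc (x axis) for each tested gene of the GBP members and 8 related lists (rows). Filled points passed an edgeR adjusted p of 0.05, black bars are list medians, the grey band is the interquartile range of all tested genes, and vertical scatter within a row has no meaning. The member median of 0.56 lies to the right of 0 and that of the type I antiviral genes, -0.62, to the left.

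Of 8 tested inflammasome genes, 1 rose, 2 fell and 5 did not pass, with a median log2 fold change of 0.00. Pycard, which encodes the adaptor ASC, rose to 42.7 ± 2.64 CPM with DEL-1-Fc, against 33.7 ± 2.07 CPM with Fc (SD over n = 3 libraries; log2 fold change 0.34, SE 0.0753, edgeR adjusted p = 0.0186). Aim2, a DNA sensor, fell (log2 fold change -0.30, SE 0.0744, adjusted p = 0.0295), and so did Il18, a cytokine gene at under 1 CPM (log2 fold change -1.23, SE 0.331, adjusted p = 0.0428). The Pycard call was lost without DEL-1-Fc replicate 3 or Fc replicate 1 or 2 (adjusted p over the alternatives 0.00181 to 0.104). The Aim2 and Il18 calls were lost without DEL-1-Fc replicate 3 or any one Fc replicate and with the replicate number as a block. That of Aim2 was also lost with library sizes alone, and that of Il18 without DEL-1-Fc replicate 2 and with DESeq2. Adjusted p over the alternatives was 0.00502 to 0.127 for Aim2 and 0.0179 to 0.176 for Il18.

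Among the 6 enzymes that attach and process the lipid anchor of proteins such as Gbp2, edgeR called 0 (1 at an unadjusted p under 0.05), DESeq2 called 1 and limma-voom called 0, and the median log2 fold change was -0.01. Of 10 genes of atlastins and other dynamin-like GTPases, relatives of the GBPs in structure, 1 fell and 9 did not pass, with a median of -0.09. The faller was Dnm1, which encodes the neuronal dynamin, with 0.518, 0.92 and 0.557 CPM with DEL-1-Fc and 1.30, 2.25 and 1.64 CPM with Fc (log2 fold change -1.36, SE 0.282, adjusted p = 0.0147). Its call was lost without DEL-1-Fc replicate 3 or Fc replicate 2, and over the alternatives its adjusted p ranged from 0.00043 to 0.0668.

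As a description of genes with a like pattern, the log2 CPM of 9708 genes at a mean of 5 CPM or more was set beside the mean profile of the 6 members over the 6 libraries. The points share their group and their depth, so no test is given. Gbp9 itself had an r of 0.08 with that profile, while the other members, also part of it, had 0.917 to 0.949. Slc22a5, a carnitine transporter gene, came first with a Pearson r of 0.995, and measured 14.2, 18.2 and 16.7 CPM with DEL-1-Fc and 9.51, 11.9 and 11.4 CPM with Fc. Timeless, Ccnh, Snap23 and Ets1 followed with r of 0.994, 0.993, 0.993 and 0.992. Unlike Slc22a5, they did not pass, with log2 fold changes of 0.17 to 0.22. In all, 112 genes reached an r of 0.95.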

How the data were processed

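PolyA RNA from 3 DEL-1-Fc and 3 Fc libraries was sequenced, and the authors deposited 1 table of raw read counts per gene for each library. Per the submitters' processing notes, STAR and HTSeq 0.6.0 were used with GRCm38. The sources used here do not give the annotation release, the strand setting or the treatment of reads that match several places. Of 39179 identifiers, 37693 matched GENCODE M21.

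Genes were kept by edgeR's filter (minimum count 10, minimum total 15), scaled by TMM and tested with edgeR 4.0.16 (R 4.3.3), by its quasi-likelihood test with robust dispersion and Benjamini-Hochberg adjustment over 14928 genes at a threshold of 0.05. The common biological coefficient of variation was 14.4%. Each fold change is of DEL-1-Fc over Fc. Alternatives were DESeq2 1.42.0, limma-voom 3.58.1, other scaling and filters, no robust dispersion, a replicate block and leaving out each library. Likeness of patterns used log2(CPM + 0.5).

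The members and lists were chosen with earlier results of these data known. Genes named besides the members were a fixed set of interferon and IRG genes (a result is not reported here), up to 4 called genes with the smallest p of each list, the 3 nearest tested protein-coding genes on each side of each cluster, family rows outside the rule and the 5 genes most like the members. Promoter windows and their sequences are from RefSeq (GRCm38.p6), which matched 3 of the 6 members. Replicates of the same group differed beyond sampling noise in each of the 6 pairs compared.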

Additional observations from a re-analysis of the deposited data

How the results depend on the processing

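The number of genes called was 1884, and 901, 970 and 963 without Fc replicate 1, 2 and 3. These lower totals cover all tested genes, so calls lost there were not particular to the named genes. Over all fits with 1 library left out the number ranged from 901 to 3003. Members called higher ranged from 3 to 5 in that way, and members called lower were 0 throughout (edgeR, with 0 at an unadjusted p under 0.05, and 0 by DESeq2 and limma-voom). The log2 fold change of the chromosome 5 sum ranged from 0.12 to 0.34, and the sum passed without DEL-1-Fc replicate 1. Since the members were picked with this contrast known, nothing is read from their calls or from that of their sum. Leaving out 1 library gave 1 to 2 fallers among the IRGs and the interferon-γ signalling genes, 4 to 12 among other interferon-γ induced genes, and 0 to 2 among inflammasome and among dynamin-like genes. Library sizes alone gave 1 IRG and 1 inflammasome faller. DESeq2 gave 1 inflammasome and 2 dynamin-like fallers. A filter of 5 CPM in 3 libraries gave 5 fallers among interferon-γ induced genes, 1 among inflammasome genes and 0 among dynamin-like genes, since it tested fewer genes. The cause of the other changes was not tested. The sign of 4 log2 fold changes that did not pass turned when 1 library was left out, with ranges from -0.024 to 0.065 for Igtp, from -0.10 to 0.15 for Socs1, from -0.065 to 0.019 for Rap1gds1 and from -0.091 to 0.15 for Gbp2b (0.030 with library sizes alone).

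Libraries with the same replicate number did not deviate together (correlations of 0.0163, 0.0885 and 0.0425). With the replicate number as a block, 1510 genes were called, 3 members among them, and inflammasome fallers numbered 0. The block ended the calls of Tyk2, Aim2, Il18 and Lrrc8b (adjusted p = 0.0693, 0.0601, 0.0592 and 0.0567), and Gm43302 passed (adjusted p = 0.0465), with edgeR. It changed no other call of a named gene. Depth limits Gbp8 most among the members, with 305 counts in DEL-1-Fc replicate 1. Adding Gbp2b to the chromosome 3 sum, and Gm43302 and Gbp11 to the chromosome 5 sum, gave 0.56 and 0.11, an alternative chosen after seeing the data.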
